A study of Musa acuminata AAA Group with 4 samples.

Results

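NAC transcription factors are a plant-specific family, and 45 of the 5520 genes in the deposited leaf and root tables carry a protein description that contains "NAC domain" or "NAC transcription". Of these, 14 are in the leaf table of 1183 genes and 43 in the root table of 4747 genes, with 12 in both. The tables compare Cavendish banana seedlings, a triploid dessert banana, after 60 days in a low-potassium solution with seedlings kept as long in complete Hoagland solution. The groups are low-potassium leaf, normal-potassium leaf, low-potassium root and normal-potassium root, with 1 library each. The labels do not give the potassium concentration or say whether a library pooled several plants. The tables list genes that passed the authors' limits, so the 45 genes are not the whole NAC family of banana, and a NAC gene that is not listed was not analysed here.

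NAC proteins bind DNA through a conserved domain at their start, and a variable end carries the activating region. The family is named after NAM of petunia and ATAF and CUC of Arabidopsis. Members of the ATAF group respond to drought, salt and abscisic acid, and NAP of Arabidopsis and NAM-B1 of wheat promote leaf senescence. The microRNA miR164 cleaves the transcripts of NAC1, NAC100 and their relatives in Arabidopsis, where NAC1 acts in lateral root formation. NST1 and the VND factors of Arabidopsis switch on the genes that build secondary walls in fibres and xylem vessels. The banana names used below are those of the best database match, which is not proof of the same role.

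Between 4203766 and 4555282 gene fragments stood behind each library, a total recovered from its count and FPKM columns. FPKM is the number of fragments scaled to gene length and to the library's total. Fold changes are ratios of FPKM values, low over normal potassium, and their 95% intervals cover counting error between 2 libraries only. There is no replicate check and no p-value of the present work. "Higher" and "lower" mean that the authors' deposited table lists the gene in that direction. The intervals of all 57 fold changes of NAC genes, 14 in leaf and 43 in root, exclude 1, and the tables' limits of a 2-fold ratio and a low FDR select for that.

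All 14 NAC genes of the leaf table were higher in low potassium, where 67.4% of all listed leaf genes were higher. Their median log2 ratio was 1.58, beside 1.32 over the whole leaf table, which takes in 386 lower genes. A median over the higher leaf genes alone was not computed. The middle NAC genes by fold, Ma08_g22240 and Ma05_g07350, ranked 434 and 455 among the higher leaf genes with a fragment in both libraries. With 797 higher leaf genes in all, both lay past the middle of that ranking. The summed level of these genes was 1011 FPKM in low-potassium leaf and 319.5 FPKM in normal-potassium leaf. Single genes were 2.28-fold to 63.7-fold higher, and 4 of the 14 reached 4-fold. The share of all higher leaf genes that reached 4-fold was not computed. The last of the 4, Ma03_g09370 at 4.09-fold, ranked 289 among the higher leaf genes with a fragment in both libraries. The count is therefore not shown to be particular to NAC genes. No gene named after the wall regulators NAC43 or NAC76 is in the leaf table.

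The listed NAC gene with the largest fold in leaf was the NAC100-like gene Ma10_g04910, at 46.5 FPKM in low-potassium leaf and 0.73 FPKM in normal-potassium leaf. These levels rest on 187 and 3 fragments. Its 63.7-fold difference (interval 21.5 to 312) ranked 1 among the higher leaf genes with a fragment in both libraries. The NAC2-like gene Ma06_g27170, named after ATAF1 of Arabidopsis, a stress-responsive factor, measured 41.9 FPKM in low-potassium leaf and 3.83 FPKM in normal-potassium leaf. It was 10.9-fold higher (interval 6.19 to 21.1).

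The most abundant transcripts of the listed leaf NAC genes were those of Ma06_g33980 and Ma06_g33990. Ma06_g33980, named after NAC29 (NAP) of Arabidopsis, had 286 FPKM in low-potassium leaf and 113 FPKM in normal-potassium leaf, a 2.54-fold difference (interval 2.29 to 2.83). Ma06_g33990, named after rice NAC68, had 234 FPKM in low-potassium leaf and 64.3 FPKM in normal-potassium leaf, 3.63-fold higher (interval 3.12 to 4.24). Both stood at the top of the listed leaf NAC genes in either library. A further NAC29-like gene, Ma06_g25140, was much less abundant, with 17.7 FPKM in low-potassium leaf and 2.77 FPKM in normal-potassium leaf (6.39-fold higher, interval 3.01 to 15.6). It and the NAC18-like gene Ma10_g12120 are in the leaf table but not in the root table. Ma10_g12120, named after a seed-coat factor of Arabidopsis, measured 39.7 FPKM in low-potassium leaf and 13.5 FPKM in normal-potassium leaf (2.94-fold higher, interval 2.04 to 4.33).

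The other 3 NAC68-like genes of the leaf lay in a narrow range of folds. Ma07_g23280 had 92.8 FPKM in low-potassium leaf and 25.1 FPKM in normal-potassium leaf and was 3.70-fold higher. Ma05_g07350 had 40.2 and Ma04_g02450 had 39.9 FPKM in low-potassium leaf, against 13.6 and 15.6 FPKM in normal-potassium leaf. These genes were 2.95-fold (interval 2.15 to 4.12) and 2.56-fold higher (interval 1.87 to 3.53), and the intervals of all 4 NAC68-like genes in leaf overlap. The second NAC2-like gene, Ma03_g19830, had 29.8 FPKM in low-potassium leaf and 10.6 FPKM in normal-potassium leaf. It was 2.81-fold higher, less than Ma06_g27170. The remaining NAC100-like genes were Ma05_g07360 at 91.6 FPKM in low-potassium leaf and 40.1 FPKM in normal-potassium leaf, Ma08_g22240 at 23.7 and 7.81 FPKM and Ma03_g09370 at 8.26 and 2.02 FPKM, in the same order. They were 2.28-fold, 3.03-fold and 4.09-fold higher, and the fold of Ma03_g09370 rests on 32 and 8 fragments (interval 1.85 to 10.3). Its FDR in the authors' deposited table was 0.00084, close to the largest FDR of the leaf table, 0.000995. Ma04_g02440, a NAC25-like gene, had 18.9 FPKM in low-potassium leaf and 6.96 FPKM in normal-potassium leaf (2.72-fold higher, interval 1.75 to 4.32).

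Of the 43 NAC genes listed in root, 37 were higher and 6 lower in low potassium. Of all 4747 listed root genes, 40.4% were higher. The median log2 ratio was 1.71 for the NAC genes and -1.20 for the whole table, most of whose genes were lower. Summed over the 43 genes, the level was 2553 FPKM in low-potassium root and 673 FPKM in normal-potassium root. The higher genes reached 2.06-fold to 30.9-fold, and 17 of them 4-fold or more. The same share over all 1917 higher root genes was not computed. The last of the 17, Ma07_g23280 at 4.01-fold, ranked 664 among those with a fragment in both libraries. In the plot of root ratios, 4 of the 6 lower genes are those named after wall regulators.

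**Figure D1:**
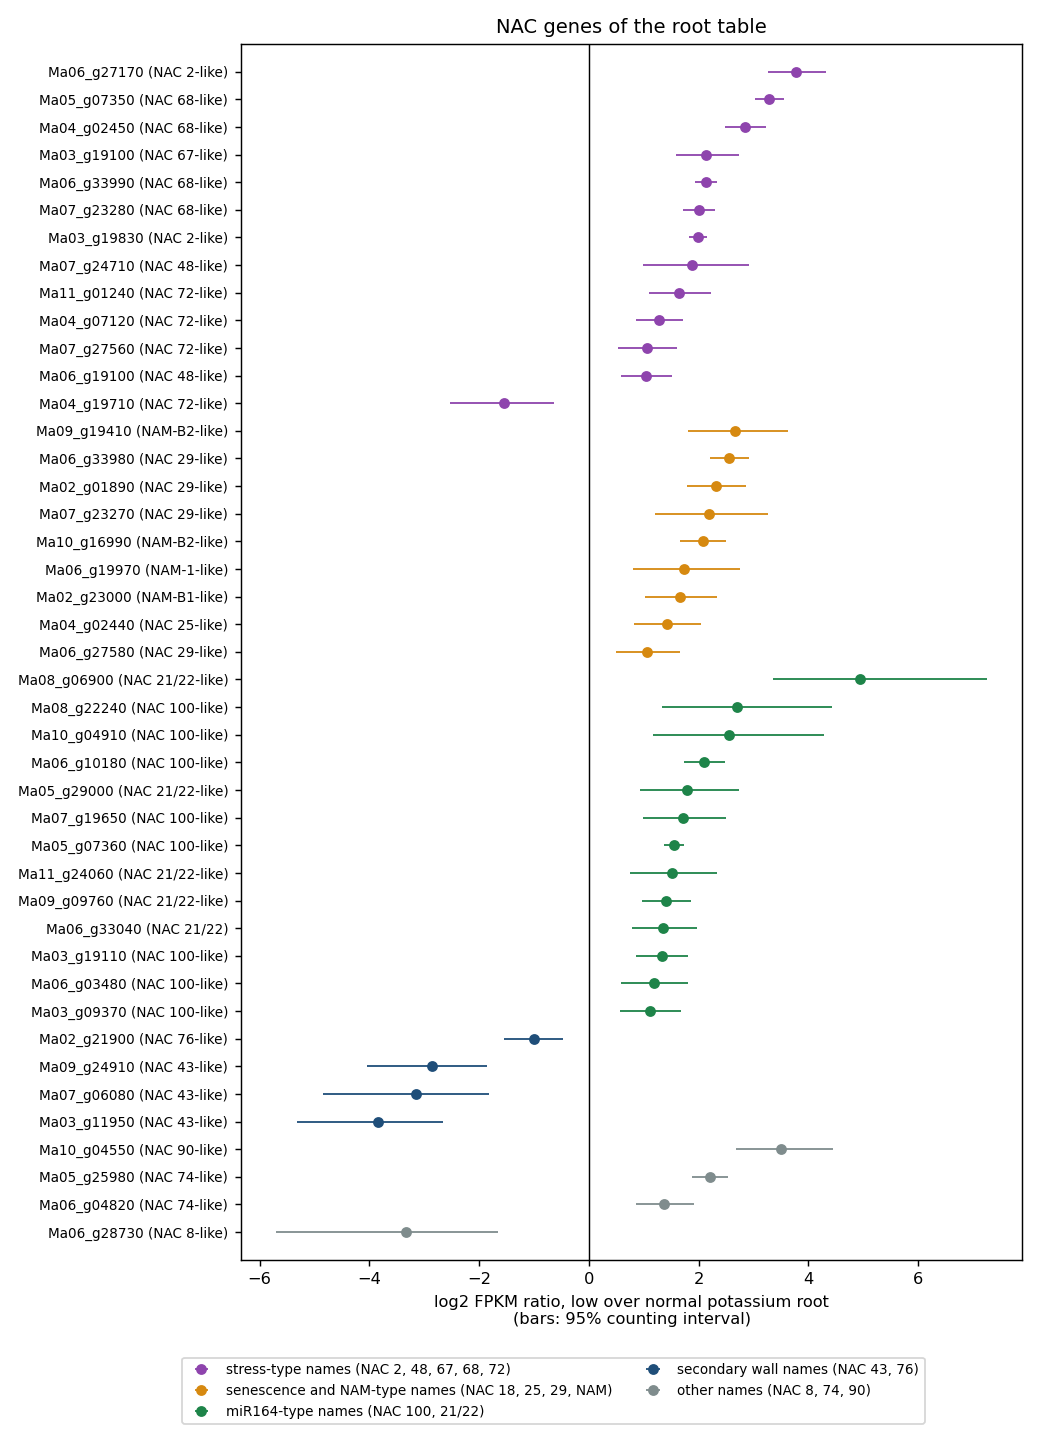
Log2 ratio of FPKM, low over normal potassium root, for the 43 NAC genes of the root table, 1 point per gene with its 95% counting interval, coloured by the role of the protein the gene is named after. The NAC21/22-like and NAC100-like genes (13) and the senescence and NAM names (9) all lie right of 0, while the NAC43-like and NAC76-like genes (4) all lie left of 0.

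Among the stress-type names (NAC2, NAC48, NAC67, NAC68 and NAC72), 12 of 13 root genes were higher. Together these 13 had 1543 FPKM in low-potassium root and 322 FPKM in normal-potassium root. Of the listed NAC genes, the NAC2-like gene Ma03_g19830 was the most abundant in both root libraries, with 349.7 FPKM in low-potassium root and 88.4 FPKM in normal-potassium root, and was 3.96-fold higher (interval 3.52 to 4.47). Its counts were not whole, so some of its fragments may be shared with a similar copy. The other NAC2-like gene, Ma06_g27170, had 129 FPKM in low-potassium root and 9.46 FPKM in normal-potassium root. It was 13.7-fold higher (interval 9.64 to 19.99), the largest fold of the stress-type names in root.

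All 4 NAC68-like genes were higher in root. Rice NAC68 (OsNAC4) is known for its part in hypersensitive cell death. Ma05_g07350 measured 329 FPKM in low-potassium root and 33.7 FPKM in normal-potassium root, 9.77-fold higher (interval 8.19 to 11.7). Ma04_g02450 measured 126 FPKM in low-potassium root and 17.5 FPKM in normal-potassium root, 7.18-fold higher (interval 5.57 to 9.38). These intervals do not overlap those of the other NAC68-like genes. Ma06_g33990 had 312 FPKM in low-potassium root and 70.9 FPKM in normal-potassium root (4.40-fold, interval 3.83 to 5.07), and Ma07_g23280 had 132 and 32.9 FPKM in the same order (4.01-fold, interval 3.30 to 4.91). The NAC67-like gene Ma03_g19100 had 34.3 FPKM in low-potassium root and 7.77 FPKM in normal-potassium root, 4.41-fold higher (interval 3.0 to 6.67). Of the NAC48-like genes, Ma07_g24710 had 11.97 FPKM in low-potassium root and 3.26 FPKM in normal-potassium root, and Ma06_g19100 had 32.0 and 15.5 FPKM in the same order. They were 3.67-fold and 2.06-fold higher. Rice NAC48 (OsNAC6) is a drought and salt response factor.

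The NAC72-like genes did not move together. NAC72 of Arabidopsis (RD26) acts in abscisic acid and dehydration responses. Of 4 such genes, Ma11_g01240 (33.9 FPKM in low-potassium root and 10.8 FPKM in normal-potassium root), Ma04_g07120 (31.2 and 12.9 FPKM) and Ma07_g27560 (17.9 and 8.54 FPKM) were 3.14-fold, 2.42-fold and 2.09-fold higher. Ma04_g19710 fell to 3.41 FPKM in low-potassium root, against 9.93 FPKM in normal-potassium root, 2.91-fold lower (interval 1.56 to 5.76). Its FDR in the authors' deposited table was 0.000943, close to the largest FDR of that table, 0.000987.

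All 9 root genes with senescence and NAM-type names were higher, at 363 FPKM in low-potassium root and 90.7 FPKM in normal-potassium root in sum. The NAM-B2-like gene Ma09_g19410 had the largest fold of them, with 14.7 FPKM in low-potassium root and 2.32 FPKM in normal-potassium root (6.34-fold higher, interval 3.50 to 12.4). Of the NAC29-like genes, Ma06_g33980 was the most abundant, at 101 FPKM in low-potassium root and 17.1 FPKM in normal-potassium root (5.89-fold higher, interval 4.62 to 7.60). Ma02_g01890 had 42.5 FPKM in low-potassium root and 8.57 FPKM in normal-potassium root, Ma07_g23270 had 13.3 and 2.94 FPKM and Ma06_g27580 had 32.0 and 15.3 FPKM in the same order. These were 4.96-fold, 4.53-fold and 2.09-fold higher. Ma10_g16990, also NAM-B2-like, had 89.2 FPKM in low-potassium root and 21.2 FPKM in normal-potassium root (4.21-fold, interval 3.16 to 5.68). The NAM-1-like gene Ma06_g19970, the NAM-B1-like gene Ma02_g23000 and the NAC25-like gene Ma04_g02440 were 3.33-fold, 3.17-fold and 2.67-fold higher.

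All 13 root genes named after the miR164-type factors NAC100 and NAC21/22 (NAC1) were higher as well. Their sum was 497 FPKM in low-potassium root and 160.4 FPKM in normal-potassium root. The NAC21/22-like gene Ma08_g06900 had the largest fold of any listed NAC gene in root. It measured 23.5 FPKM in low-potassium root and 0.76 FPKM in normal-potassium root, from 88 and 3 fragments, and was 30.9-fold higher (interval 10.2 to 153). The other 4 NAC21/22 genes were 2.54-fold to 3.45-fold higher, and all of these intervals lie below that of Ma08_g06900. They are Ma09_g09760, the most abundant at 42.6 FPKM in low-potassium root and 16.1 FPKM in normal-potassium root, Ma06_g33040 at 23.6 and 9.29 FPKM, Ma11_g24060 at 14.2 and 4.98 FPKM and Ma05_g29000 at 13.2 and 3.81 FPKM. Ma08_g06900 had the lowest level of the 5 in normal-potassium root, while in low-potassium root it lay below Ma09_g09760, close to Ma06_g33040 and above the others. The 8 NAC100-like genes were 2.16-fold to 6.53-fold higher. Ma05_g07360 was the most abundant of them, at 198 FPKM in low-potassium root and 67.6 FPKM in normal-potassium root (2.93-fold, interval 2.57 to 3.34). Ma06_g10180 had 71.6 FPKM in low-potassium root and 16.8 FPKM in normal-potassium root (4.27-fold, interval 3.32 to 5.55), a larger fold from a lower level. Ma03_g19110, Ma06_g03480 and Ma07_g19650 were 2.51-fold, 2.27-fold and 3.27-fold higher. The largest fold of this name, 6.53 for Ma08_g22240 (8.94 FPKM in low-potassium root and 1.37 FPKM in normal-potassium root), rests on 31 and 5 fragments and has an interval of 2.52 to 21.5.

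The genes named after wall regulators were lower, each of the 4. NAC43 of Arabidopsis is NST1, a master switch of secondary wall formation in fibres, and NAC76 is VND2, which acts in xylem vessels. The NAC43-like gene Ma03_g11950 fell to 1.25 FPKM in low-potassium root, against 17.9 FPKM in normal-potassium root, from 6 and 91 fragments (14.3-fold lower, interval 6.33 to 40.0). Ma07_g06080 had 1.15 FPKM in low-potassium root and 10.2 FPKM in normal-potassium root (8.88-fold lower, interval 3.55 to 28.6). The third NAC43-like gene, Ma09_g24910, had 2.02 FPKM in low-potassium root and 14.7 FPKM in normal-potassium root (7.26-fold lower, interval 3.61 to 16.6). The NAC76-like gene Ma02_g21900 stood at the limit of the table, at 11.3 FPKM in low-potassium root and 22.7 FPKM in normal-potassium root, 2.0-fold lower (interval 1.38 to 2.93). Its interval does not reach those of the NAC43-like genes. These are bulk root samples, in which fewer cells of a type and less RNA per cell cannot be told apart.

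Most listed root genes with secondary wall words in their names were lower in the same comparison. Whether they are targets of the NAC43-like or NAC76-like factors was not tested. The secondary wall list, taken by words in the protein names, held 36 root genes, of which 31 were lower and 5 higher (median log2 ratio -2.14). Beside this, 59.6% of all listed root genes were lower. All 4 cellulose synthase A genes were lower, by 6.78-fold to 9.92-fold, as were all 15 fasciclin-like arabinogalactan genes, by 2.37-fold to 7.77-fold. The list took every fasciclin-like gene, whatever its number. Of 9 laccases, which oxidise lignin precursors, 6 were lower, by 4.67-fold to 32.5-fold, and 3 were higher. Both listed root genes named xylem cysteine proteinase 1, which are outside this list, were higher, 2.46-fold and 2.40-fold. The most abundant genes of the list were the fasciclin-like genes Ma03_g10710, at 240.5 FPKM in low-potassium root and 812 FPKM in normal-potassium root, and Ma08_g26090, at 168 and 399 FPKM in the same order. In leaf the list held 5 genes, 4 higher and 1 lower, which is near the 67.4% of all listed leaf genes that were higher, and its median log2 ratio of 1.08 lies below the 1.32 of the leaf table. The most abundant were COBRA-like 7 (Ma11_g14440) at 19.0 FPKM in low-potassium leaf and 9.32 FPKM in normal-potassium leaf and a fasciclin-like gene (Ma04_g37880) at 13.5 and 4.02 FPKM.

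**Figure D2:**
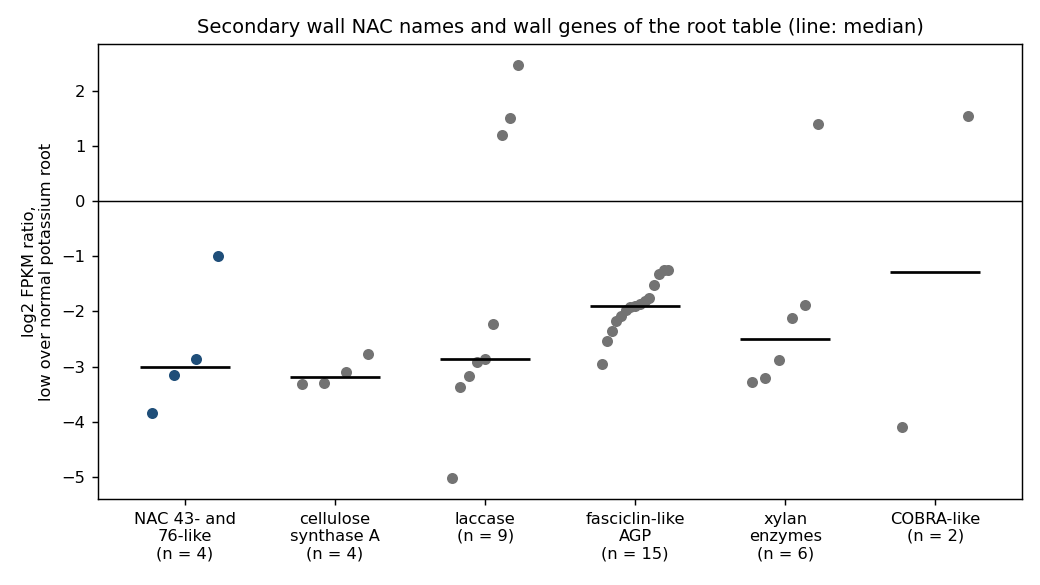
Log2 ratio of FPKM, low over normal potassium root, for the 4 NAC43-like and NAC76-like genes and for the 36 listed wall genes by kind, 1 point per gene with the median as a line. The NAC median of -3.00 lies between those of the cellulose synthase A genes (-3.19) and the laccases (-2.86), and 3 laccases, 1 xylan enzyme and 1 COBRA-like gene lie above 0.

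Of the 4 root genes with other names, 3 were higher. The NAC90-like gene Ma10_g04550 had 45.9 FPKM in low-potassium root and 4.03 FPKM in normal-potassium root, 11.4-fold higher (interval 6.44 to 21.9). Arabidopsis NAC90 is a regulator of leaf senescence. The NAC74-like genes Ma05_g25980 (69.7 FPKM in low-potassium root and 15.1 FPKM in normal-potassium root) and Ma06_g04820 (18.3 and 7.06 FPKM) were 4.60-fold and 2.59-fold higher. The NAC8-like gene Ma06_g28730, named after SOG1, which directs the DNA damage response of Arabidopsis, had 0.85 FPKM in low-potassium root and 8.61 FPKM in normal-potassium root. With 3 and 32 fragments it was 10.1-fold lower (interval 3.17 to 51.7).

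The 12 NAC genes in both tables make up 85.7% of the leaf NAC genes and 27.9% of the root NAC genes. Of all genes in the leaf table, 34.7% are also in the root table, and the 410 shared genes are 8.64% of the root table. All 12 shared NAC genes were higher in both tissues, as were 64.9% of the 410 shared genes. In sum the 12 genes had 1735 FPKM in low-potassium root and 358 FPKM in normal-potassium root, against 953 FPKM in low-potassium leaf and 303 FPKM in normal-potassium leaf. The tables were scaled separately, each value relative to the total of its own library.

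**Figure D3:**
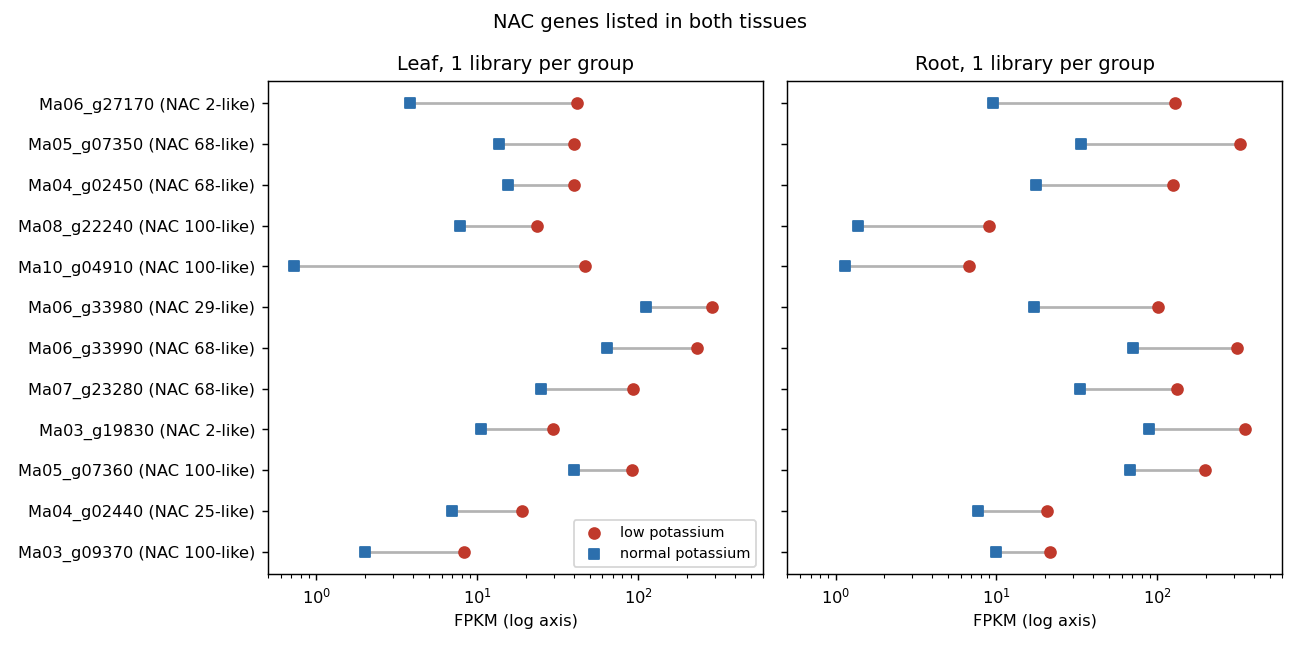
FPKM on a log axis in low-potassium (circles) and normal-potassium (squares) libraries for the 12 NAC genes listed in both tissues, leaf on the left and root on the right, ordered by root ratio. Every circle lies to the right of its square, and the leaf span of Ma10_g04910, 46.5 and 0.73 FPKM, is the widest.

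Leaf and root differed in which of the 12 had the largest fold. The root fold exceeded the leaf fold for 9 genes, and for 4 of these the interval of the ratio of folds excluded 1. The share of all 410 genes listed in both tissues with a larger root fold was not computed. The count of 9 is therefore not shown to be particular to NAC genes. Ma05_g07350 was 9.77-fold higher in root and 2.95-fold higher in leaf, so its root fold was 3.31 times its leaf fold (interval 2.26 to 4.79). For Ma04_g02450 that ratio was 2.81 (interval 1.85 to 4.25), for Ma06_g33980 it was 2.32 (interval 1.77 to 3.06) and for Ma05_g07360 it was 1.28 (interval 1.02 to 1.61). The NAC100-like Ma10_g04910 went the other way, at 5.90-fold in root and 63.7-fold in leaf, a ratio of 0.0926 (interval 0.0136 to 0.505). With normal potassium it had 1.15 FPKM in root and 0.73 FPKM in leaf, from 5 and 3 fragments. In low potassium it had 6.78 FPKM in root and 46.5 FPKM in leaf. For the other 7 genes the interval of the ratio included 1, which does not show equal folds.

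**Figure D4:**
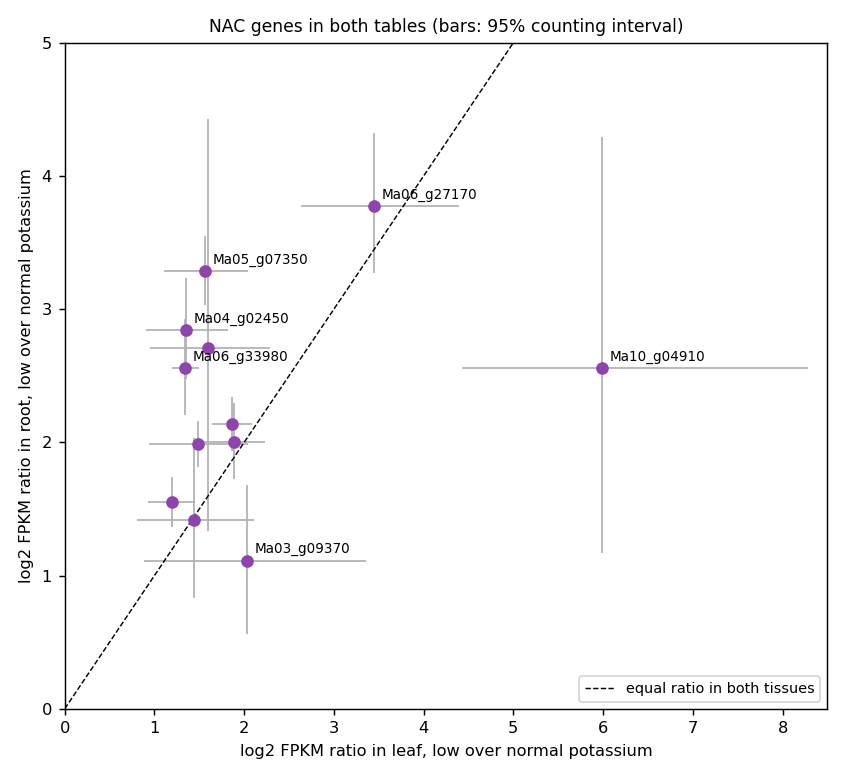
Log2 ratio in root (vertical axis) against log2 ratio in leaf (horizontal axis), each low over normal potassium, for the 12 NAC genes in both tables, with 95% counting intervals as bars and the line of equal ratios dashed. Most points lie above the line, and Ma10_g04910 lies far to the right of it at 5.99 in leaf and 2.56 in root.

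Levels of the shared genes differed by tissue. Ma03_g19830 had 11.7 times the FPKM in root that it had in leaf in low potassium and 8.33 times in normal potassium. Ma06_g33980 was the reverse, with 0.352 times the leaf level in root in low potassium and 0.152 times in normal potassium. In normal potassium 10 of the 12 genes were more abundant in root than in leaf, and in low potassium 9 were. The same shares over all 410 genes listed in both tissues were not computed.

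Of the 45 genes, 10 form 5 pairs with consecutive locus numbers, and in each pair a gene named NAC67-like or NAC68-like stands beside a gene with another NAC name. These are Ma03_g19100 with Ma03_g19110, Ma04_g02450 with Ma04_g02440, Ma05_g07350 with Ma05_g07360, Ma06_g33990 with Ma06_g33980, and Ma07_g23280 with Ma07_g23270. In the RefSeq annotation of the assembly Cavendish_Baxijiao_AAA, 2 of the pairs map to the same chromosome copy, Ma05_g07350 and Ma05_g07360 with 0 annotated genes between them and Ma04_g02450 and Ma04_g02440 with 1. Both genes of a pair were higher in root in all 5 pairs, where 37 of the 43 listed NAC genes were higher. In leaf both were higher in the 3 pairs with both genes listed, as were all 14 listed NAC genes. The leaf count was thus fixed by that share, and the root count says little about the pairs. The pairs held 51.0% of the summed NAC FPKM in low-potassium root and 40.5% in normal-potassium root. Of the leaf sum they held 79.5% with low potassium and 87.1% with normal potassium. The leaf shares include Ma07_g23280, whose partner is not in the leaf table. They rest largely on 1 pair: of 1011 FPKM in low-potassium leaf, Ma06_g33980 had 286 and Ma06_g33990 had 234. Some partners differed in fold. In root Ma05_g07350 was 9.77-fold and Ma05_g07360 2.93-fold higher, and Ma04_g02450 was 7.18-fold and Ma04_g02440 2.67-fold higher. Within each of these pairs the root intervals do not overlap. In the other pairs they do, as for Ma07_g23270 (4.53-fold) and Ma07_g23280 (4.01-fold). In leaf the partners' intervals overlap for the pairs of Ma05_g07350 and Ma04_g02450. They do not for Ma06_g33980 (2.54-fold) and Ma06_g33990 (3.63-fold).

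Other processes in which NAC factors act in other plants were read from lists taken by words in the protein names. Their counts stand beside 40.4% of all listed root genes and 67.4% of all listed leaf genes that were higher, and beside whole-table median log2 ratios of -1.20 in root and 1.32 in leaf. Abscisic acid and drought genes were higher for 32 of 40 in root (median log2 ratio 1.25) and for 12 of 15 in leaf (median 1.15), where the count is near the share of the whole table and the median below that of the table. The most abundant were the late embryogenesis gene Lea5-D (Ma06_g21680), at 7179 FPKM in low-potassium root and 2305 FPKM in normal-potassium root, and dehydrin COR410 (Ma11_g01190), a protective protein of dry cells, at 1508 and 506 FPKM in the same order. In leaf the same dehydrin had 2024 FPKM in low potassium and 476 FPKM in normal potassium, and an abscisic stress-ripening gene (Ma06_g27530) had 449 and 145 FPKM. A COR410-like gene (Ma11_g15310) was among the 8 lower root genes, at 13.9 FPKM in low-potassium root and 60.3 FPKM in normal-potassium root. Most of the 40 root genes of the abscisic acid and drought list are described only as protein phosphatase 2C. Their part in abscisic acid signalling was not tested. Senescence and chlorophyll breakdown genes were higher for all 5 root members and the 1 leaf member, and a single gene in a table that is 67.4% higher says little. They included STAY-GREEN (Ma02_g05320), which removes magnesium from chlorophyll, at 25.5 FPKM in low-potassium root and 5.0 FPKM in normal-potassium root, and the chlorophyll b reductase NYC1 (Ma07_g10650) at 20.95 and 9.44 FPKM. A leaf STAY-GREEN gene (Ma07_g18910) had 30.6 FPKM in low-potassium leaf and 11.5 FPKM in normal-potassium leaf.

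Mitochondrial stress genes were higher for all 5 leaf members and for 3 of 4 root members, beside 67.4% of the leaf table and 40.4% of the root table, and these lists are small. Examples are the BCS1-B chaperone gene Ma04_g18020, which had 397 FPKM in low-potassium root against 120.2 FPKM in normal-potassium root, and 85.9 FPKM in low-potassium leaf against 26.1 FPKM in normal-potassium leaf. A second such gene (Ma04_g18010) had 332 and 82.5 FPKM in low- and normal-potassium root, and a ubiquinol oxidase gene (Ma06_g03040), of the alternative respiratory path, had 103 and 44.7 FPKM in low- and normal-potassium leaf. The list for developmental cell death was higher for 7 of 8 in leaf (median log2 ratio 1.34) and 3 of 6 in root (median -0.26). The leaf median is about that of the whole leaf table, and the root count is near the 40.4% of the root table. Both lists mix proteinases and nucleases with proteinase inhibitors. Of the 6 root genes 2 are such inhibitors, Ma11_g18530 and Ma04_g13950, and both were lower. In leaf, 4 of the listed genes, including the most abundant (Ma03_g19290, 425 FPKM in low-potassium leaf and 189 FPKM in normal-potassium leaf), are inhibitors of cysteine proteinases. A vacuolar-processing enzyme gene (Ma06_g37610) fell to 129.5 FPKM in low-potassium leaf, against 340.0 FPKM in normal-potassium leaf. In root a proteinase inhibitor (Ma11_g18530) fell to 38.7 FPKM in low potassium, against 133 FPKM in normal potassium, and xylem cysteine proteinase 1 (Ma06_g16010) measured 74.95 FPKM in low potassium and 30.4 FPKM in normal potassium. A second gene of that name (Ma02_g06870) had 15.55 and 6.49 FPKM in the same order.

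Markers of tissue type were read in the same way, beside 40.4% of all listed root genes and 67.4% of all listed leaf genes that were higher. Of the green tissue markers listed in root, 3 of 3 were higher, with a summed level of 81.2 FPKM in low-potassium root and 16.7 FPKM in normal-potassium root. Of those listed in leaf, 7 of 7 were higher, at 1037 FPKM in low-potassium leaf and 375 FPKM in normal-potassium leaf. Both listed casparian strip genes, markers of the root endodermis, were higher in root, at 31.0 FPKM in low potassium and 5.11 FPKM in normal potassium in sum, and none of the root markers is in the leaf table. None of these listed markers is at 0 in either library of its tissue. The part of a change in tissue makeup in the NAC values was not tested.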

How the data were processed

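Per the labels' protocols, oligo(dT)-selected RNA was fragmented and random-primed by a route with no strand mark, so antisense transcripts are counted together. Per the file headers, the authors deposited for each tissue an estimated count and an FPKM value per library, a log2 ratio, a p-value and an FDR. The deposited tables hold genes with an absolute log2 ratio of 1 or more and an FDR up to 0.000995 in leaf and 0.000987 in root. Aligner, counter, genome build and test: not given in the sources used here. The authors' short table on potassium transport holds no NAC gene and was not used.

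The members and lists were chosen with earlier results of these data known, and role groups were set after the names were seen. The coding lengths of the 45 genes run between 579 and 1443 bases. RefSeq symbols matched 40 of the 45 by protein accession without its version. For 16 of the 45 at least 1 count is not whole within 0.001, as where fragments are split between similar genes, so their values are less certain. Library totals are the slope of count over FPKM on gene length, over genes above 100 fragments and 5 FPKM that lay within 1% of the line (at least 94.9% of such genes in each library). Intervals are exact (Clopper-Pearson) for the low-potassium count given both counts, and those of ratios of folds come from an exact conditional odds ratio. They cover counting error only, and may understate it, since PCR copies are not independent molecules. In medians over all listed genes a library at 0 was set to 3 counts. With 1 library per group no test was run, including one across both tissues. Depth recovery and intervals were tested on simulated data.

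Genes named by rule were all leaf members, all members in both tables, all lower members, the root members with the largest folds (12) or levels (6), and the 2 most abundant genes of each other list. Other root members are given so that all are accounted for. Python 3.11.15, pandas 2.3.3, scipy 1.17.1 and matplotlib 3.10.9 were used. Alternatives were counts scaled by depth, a pseudocount of 1 FPKM, a filter on low FPKM, whole counts only, a wider member rule and a 4-fold limit.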

Additional observations from a re-analysis of the deposited data

Results flagged for a closer look

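No NAC gene had opposite directions in leaf and root. Among the 21 genes of the NAC family and the other lists that are in both tables, 2 wall genes did, and the difference was not tested. The laccase-24-like gene Ma06_g35820 had a log2 ratio, low over normal potassium, of 1.19 in root and -1.57 in leaf. Its levels were 82.0 FPKM in low-potassium root and 35.9 FPKM in normal-potassium root, against 3.84 FPKM in low-potassium leaf and 11.4 FPKM in normal-potassium leaf. The glucuronoxylan 4-O-methyltransferase 1-like gene Ma09_g01410, which modifies xylan, had a log2 ratio of -2.88 in root and 2.13 in leaf. It measured 1.54 FPKM in low-potassium root and 11.4 FPKM in normal-potassium root, against 9.48 FPKM in low-potassium leaf and 2.16 FPKM in normal-potassium leaf.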

How the results depend on the processing

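Scaling the counts by depth in place of FPKM, or widening the member rule to NAC as a word, left the counts of 14 higher NAC genes in leaf and 37 higher and 6 lower in root as they were. No log2 ratio of the 57 moved by more than 0.0053 with scaled counts. With a pseudocount of 1 FPKM 3 of the 57 dropped under an absolute log2 ratio of 1, leaving 35 higher and 5 lower genes in root, and the median was 1.49 in leaf and 1.56 in root. Requiring a 4-fold ratio left 4 higher genes in leaf and 17 higher in root, by construction, with 4 lower in root. Keeping genes of at least the median FPKM of their table left 11 higher genes in leaf, and 21 higher and 0 lower in root, since all 6 lower root genes are of low level. Keeping genes with whole counts left 10 higher in leaf and 24 higher and 4 lower in root, because fewer genes enter. Across the alternatives other than the 4-fold limit, for which no median was taken, the root median lay between 1.56 and 2.07. The leaf median lay between 1.49 and 1.58 across the same alternatives. Each group holds 1 library, so there is no replicate number to block on and no replicate to leave out. A fit over both tissues with tissue as a block, for the 12 genes in both tables, was not run. Depth limits the genes under about 10 fragments in a library most, as in the NAC43-like and NAC8-like genes and in Ma10_g04910.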

Other observations

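The KEGG orthology column of the authors' deposited tables was searched for NAC as a word and for 3 entries. Other words for a transcription factor were not searched. Of the 45 NAC genes, 43 carry a KEGG orthology entry, and in 0 of them does the entry hold NAC as a word. All 43 carry the entry for polyadenylate-binding protein, 38 also one for glutathione gamma-glutamylcysteinyltransferase, an enzyme of the phytochelatin path, and 32 one for the pyruvate dehydrogenase E1 beta subunit. Of the 16 leaf genes with the polyadenylate-binding entry 14 are NAC genes, and neither of the other 2 is described as a polyadenylate-binding protein. Of the 51 such root genes 41 are NAC genes, and 2 of the other 10 are described as polyadenylate-binding proteins. All 14 leaf genes with the pyruvate dehydrogenase entry and 30 of 33 such root genes are NAC genes. A count of genes per pathway taken from this column would count NAC genes under these 3 entries.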
